A study of Homo sapiens with 4 samples.

Results

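Aminoacyl-tRNA synthetases attach each amino acid to its transfer RNA (tRNA), and their messenger RNAs were compared between 2 libraries with FYB1 knockdown and 2 control libraries of J-gammal, a human line named so in the labels. The 39 genes were taken by their symbols in the GENCODE 29 annotation: 20 subunits of cytosolic enzymes, 16 mitochondrial enzymes with symbols ending in 2, and 3 scaffold proteins of the multi-synthetase complex. All 39 were among the 28274 genes of the expression table. FYB1 encodes an adaptor protein of T cell signalling, and the labels give a knockdown of it as the treatment. The control libraries are labelled as receiving no treatment in one field and carry the letters NC in their titles, which the labels do not spell out, so whether the controls held a control construct is not given. The labels state neither whether both knockdown libraries carry 1 construct nor whether replicates were grown as separate cultures, so p-values measure the spread between libraries, which may be technical.

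Each synthetase recognises 1 amino acid and the tRNAs that decode it, and the charged tRNA is carried to the ribosome by an elongation factor. Cytosolic and mitochondrial protein synthesis use separate enzymes for most amino acids, all encoded in the nucleus, whereas GARS and KARS each make both forms from a single gene. The enzymes fall into class I and class II by the fold of the catalytic domain. Several cytosolic enzymes are held with the scaffold proteins AIMP1, AIMP2 and EEF1E1 in one complex. Many cytosolic synthetase genes are known targets of ATF4, a transcription factor that raises amino acid supply genes during amino acid shortage or stress in the endoplasmic reticulum. ATF4 pairs with C/EBP proteins on a composite DNA element.

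The promoters of the 3 genes with the lowest knockdown values relative to control, NARS, GARS and FARSA, are shown because 2 of them carry that element. Sequences are RefSeq windows of 300 bases (GRCh38.p14), from 250 bases before to 50 after an annotated start, written 5′ to 3′ on the strand of the gene. Capitals mark a match to TGATGNAA on either strand.
NARS, chr18:57621787-57622086, minus strand: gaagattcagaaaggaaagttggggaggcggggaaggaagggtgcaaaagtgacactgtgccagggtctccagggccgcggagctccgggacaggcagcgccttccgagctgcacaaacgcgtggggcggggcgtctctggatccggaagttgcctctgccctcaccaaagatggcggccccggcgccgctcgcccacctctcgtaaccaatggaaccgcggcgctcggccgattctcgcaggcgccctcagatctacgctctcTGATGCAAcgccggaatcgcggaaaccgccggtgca
GARS, chr7:30594628-30594927, plus strand: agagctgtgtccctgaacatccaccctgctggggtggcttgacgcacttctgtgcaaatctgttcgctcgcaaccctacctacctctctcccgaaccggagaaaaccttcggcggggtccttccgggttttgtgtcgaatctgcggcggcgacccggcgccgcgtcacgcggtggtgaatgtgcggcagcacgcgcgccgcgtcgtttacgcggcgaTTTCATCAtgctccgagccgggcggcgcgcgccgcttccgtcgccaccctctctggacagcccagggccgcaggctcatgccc
FARSA, chr19:12933662-12933961, minus strand: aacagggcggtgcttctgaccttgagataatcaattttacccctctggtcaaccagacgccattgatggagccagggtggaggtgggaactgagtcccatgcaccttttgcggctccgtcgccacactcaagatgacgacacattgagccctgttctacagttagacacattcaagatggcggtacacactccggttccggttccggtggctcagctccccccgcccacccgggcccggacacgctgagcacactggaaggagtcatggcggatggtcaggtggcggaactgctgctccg
The match in NARS began 14 bases after the start and read in the direction of the gene. In GARS it lay on the opposite strand, 33 bases before the annotated start on which the window shown is placed. RefSeq gives GARS a second window for another start (chr7:30594485-30594784), which held no match. FARSA held no match in its window, which says only that these letters were not there.

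A match to TGATGNAA was present for 8 of the 33 members with a RefSeq window (24.2%), against 1217 of all 27305 genes with a window (4.46%). DARS, LARS, VARS, YARS, AARS2 and VARS2 had no window. Of the 16 cytosolic genes 7 held the element (43.8%), as did 1 of the 14 mitochondrial genes (7.14%) and 0 of the 3 scaffold genes. Each match is shown with 8 bases on either side, on the strand that reads TGATGNAA, so that the shared core can be seen.
AARS: aacttggcTGATGCAActgcgaga
CARS: ctagaatcTGATGCAAccgccgcc
GARS: tcggagcaTGATGAAAtcgccgcg
IARS: cacggaggTGATGCAAcgcgctga
MARS: tccctcgcTGATGCAAccggaacc
NARS: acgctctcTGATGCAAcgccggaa
TARS: ggaccagcTGATGCAAtcgaaagg
YARS2: cacactgcTGATGGAAaaattaag
The core read TGATGCAA in 6 of these 8 genes, TGATGAAA in GARS and TGATGGAA in YARS2. All 7 cytosolic matches were in genes of a textbook list of ATF4-induced synthetases, where they made up 7 of the 10 genes with a window (70%), against 0 of the 6 other cytosolic genes. A match is a description of letters and is not a measurement of binding.

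FYB1 stood at 6.18 and 4.53 FPKM (fragments per kilobase of exon, scaled to the library total) in knockdown libraries 1 and 2, against 17.6 and 20.1 FPKM in controls 1 and 2. It fell by 1.65 ± 0.15 on the log2(FPKM + 1) scale (SE, limma-trend adjusted p = 0.0398), a call lost when either knockdown library was left out (adjusted p = 0.203 without library 1 and 0.0555 without library 2). Recovered reads numbered 16693113 and 20251864 in the knockdown libraries, against 17597678 and 17216663 in the controls. The totals behind the authors' scaling were 18436617 and 20480491 in the knockdown libraries, above these sums, and 16648943 and 16789004 in the controls, below them. All 12 listed T cell markers averaged at least 1 FPKM, with sums of 1332 and 1585 FPKM in knockdown and 1711 and 1615 FPKM in control libraries, and all 5 myeloid markers were below 1 FPKM. Of 5 B cell markers CD79A alone reached 1 FPKM, and their sums were 11.7 and 16.3 FPKM in knockdown and 25.5 and 21.9 FPKM in control libraries; their part in the results was not tested. Of 4 NK cell markers NKG7 alone averaged at least 1 FPKM (10.6 FPKM). Of 6 epithelial and stromal markers VIM alone did (122 FPKM), and none of 5 erythroid and megakaryocyte markers did. In bulk RNA, fewer cells of a type and less RNA per cell cannot be told apart.

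NARS, GARS and FARSA, which charge the tRNAs for asparagine, glycine and phenylalanine, were lower in both knockdown libraries than in either control. The other 35 tested members passed neither test of the difference. Of the 38 members with a mean of at least 1 FPKM, 1 fell by limma-trend on log2(FPKM + 1), where 0.137% of all 13172 tested genes were called lower. By limma-voom on the recovered reads 3 fell, where 5.80% of all genes were called lower. No member was called higher by either test, where 0.0683% of genes were called higher by limma-trend and 1.94% by limma-voom. At an unadjusted p under 0.05 limma-trend picked 7 of the 38 members, all with a lower knockdown mean, where 3088 of all 13172 tested genes (23.4%) were under that value in either direction, so this count is no result about the members. Both knockdown libraries lay below both controls for 22 of the 38 members, a pattern found in 34.6% of all tested genes, and above both controls for 3, found in 26.0%.

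**Figure D1:**
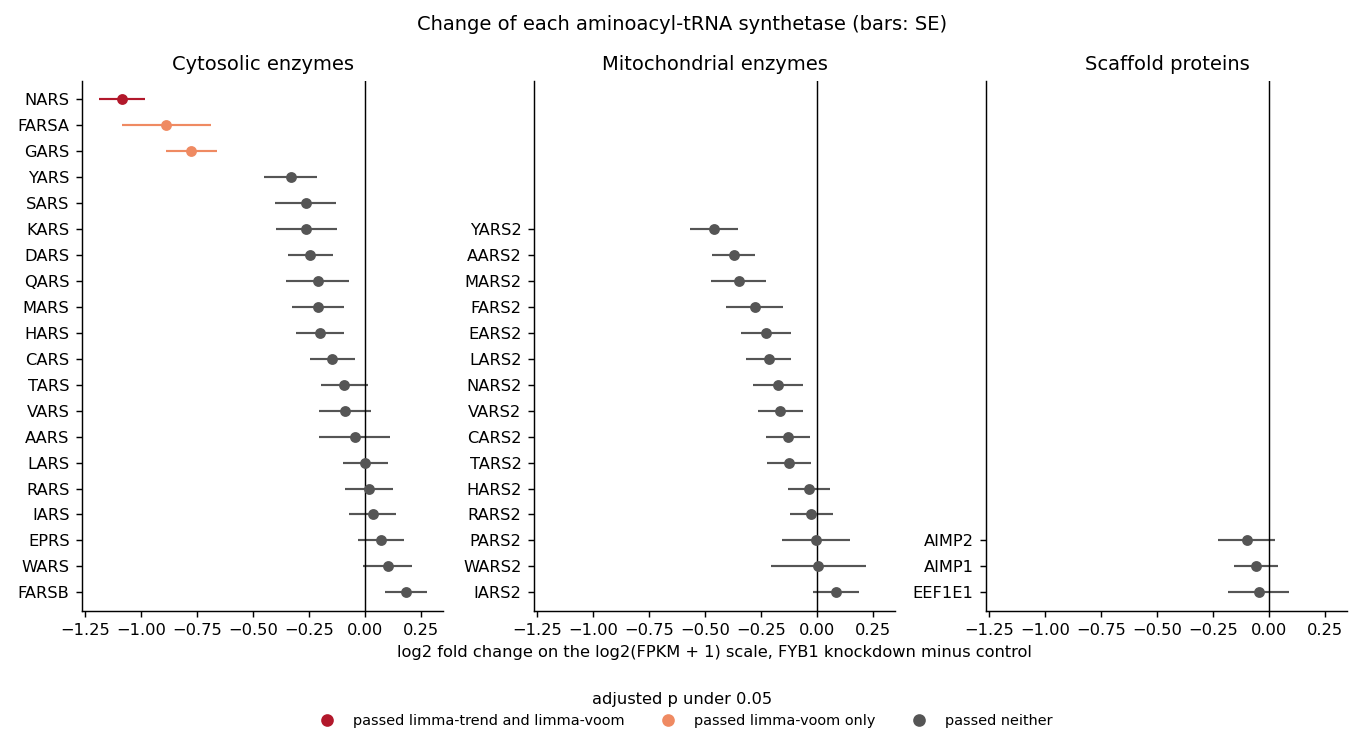
Change of each tested member as log2 fold change on the log2(FPKM + 1) scale (x axis, FYB1 knockdown minus control), with bars for the SE and 1 panel each for cytosolic enzymes, mitochondrial enzymes and scaffold proteins. NARS at -1.09, FARSA at -0.89 and GARS at -0.78 lie apart from the other cytosolic enzymes, and the mitochondrial enzymes span -0.46 to 0.082.

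NARS, the cytosolic asparaginyl-tRNA synthetase of class II (chr18:57600656-57622213, hg38), stood at 18.6 and 19.8 FPKM in knockdown libraries 1 and 2, against 41.9 and 41.8 FPKM in controls 1 and 2. The groups did not overlap, and the knockdown values sat 0.458 times as high as the controls, with means of 19.2 ± 0.823 FPKM in knockdown and 41.9 ± 0.0619 FPKM in control libraries (SD, n = 2 each). Behind these levels were 1403 and 1656 reads in the knockdown libraries and 2854 and 2872 reads in the controls. It fell by 1.09 ± 0.10 on the log2 scale (SE, limma-trend adjusted p = 0.0398). By limma-voom the change was -1.13 (adjusted p = 0.000963). Over 12 alternatives of limma-trend the change lay between -1.13 and -0.89 and the call held in 9. The call ended with no filter on low genes (adjusted p = 0.264) and when knockdown library 1 (adjusted p = 0.203) or knockdown library 2 (adjusted p = 0.0555) was left out. By limma-voom the adjusted p lay between 0.000304 and 0.0133 with 1 library left out. In each fit with a library left out, 1 group holds a single library that is assumed to vary like the other group, so these p-values are a weak check.

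GARS, the glycyl-tRNA synthetase of class II that serves cytosol and mitochondria (chr7:30594681-30634033, hg38), stood at 33.0 and 36.0 FPKM in knockdown libraries 1 and 2, against 60.4 and 59.2 FPKM in controls 1 and 2. Both knockdown values lay well under both control values, with means of 34.5 ± 2.08 FPKM in knockdown and 59.8 ± 0.874 FPKM in control libraries (SD, n = 2 each). The log2 fold change was -0.78 ± 0.11 and did not pass limma-trend (adjusted p = 0.0910), which it passed under 4 of 12 alternatives. It fell by 0.79 on the log2 scale by limma-voom (adjusted p = 0.00642), and this call was lost without control library 1 (adjusted p = 0.0682). A noncoding transcript named GARS-DT shares 99 of the exonic bases of GARS (2.38%), and reads of overlapping genes cannot be told apart because the use of strand in counting is not given.

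FARSA encodes the catalytic subunit of the cytosolic phenylalanyl-tRNA synthetase (chr19:12922479-12934037, hg38), which works as a tetramer with FARSB. Its level was 59.2 and 84.8 FPKM in knockdown libraries 1 and 2, against 139 and 125.4 FPKM in controls 1 and 2. The groups did not overlap, and the knockdown libraries differed from each other more than the controls did, with means of 72.0 ± 18.1 FPKM in knockdown and 132 ± 9.45 FPKM in control libraries (SD, n = 2 each). The log2 fold change of -0.89 ± 0.20 did not pass limma-trend (adjusted p = 0.125), and it was -0.57 after quantile normalization. By limma-voom FARSA fell by 0.90 on the log2 scale (adjusted p = 0.0166). That call was lost without knockdown library 1 (adjusted p = 0.0537) and without control library 1 (adjusted p = 0.0521).

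FARSB, the partner subunit, was at 14.4 and 13.9 FPKM in knockdown libraries 1 and 2, against 12.6 and 12.1 FPKM in controls 1 and 2. Its knockdown values were slightly above both controls, the largest positive difference among the cytosolic enzymes, without passing limma-trend (log2 fold change 0.18 ± 0.09, adjusted p = 0.287) or limma-voom (adjusted p = 0.326). The ratio of FARSA to FARSB was therefore 4.10 and 6.12 in the knockdown libraries, against 11.0 and 10.3 in the controls. The subunits of this one enzyme thus differed in the direction of their RNA difference, and no test of the ratio was run.

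**Figure D2:**
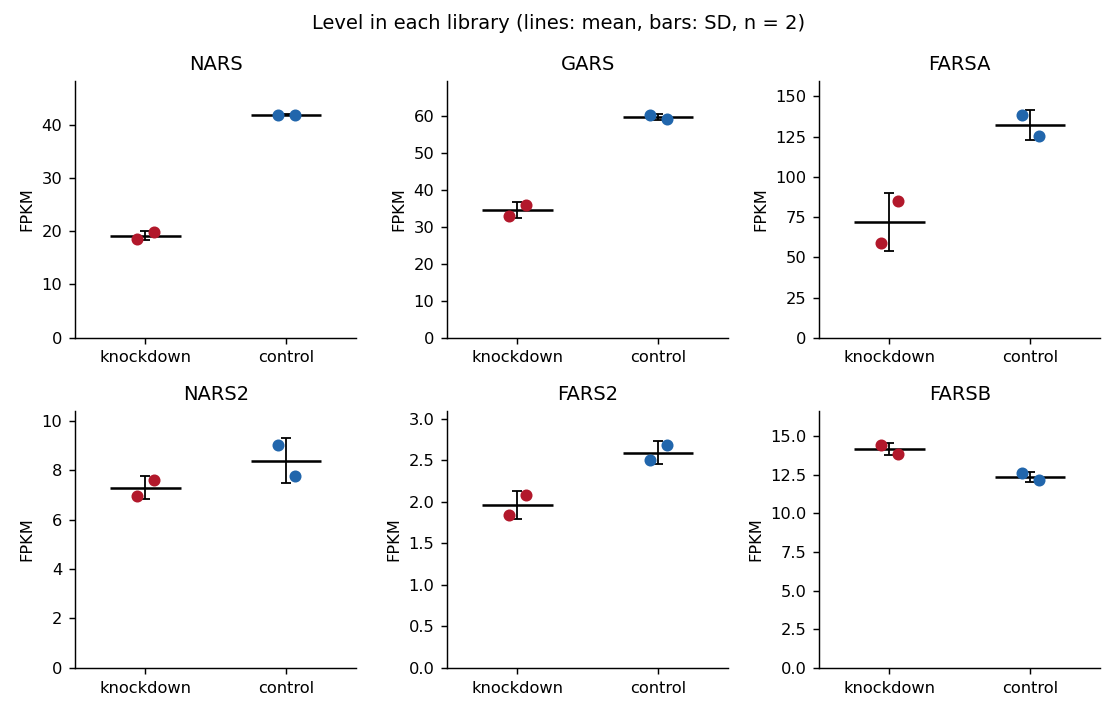
Level in FPKM (y axis, from 0, a separate scale for each gene) of the 3 lower enzymes in the upper row and of their partners below, in knockdown libraries (left, red) and control libraries (right, blue), with lines for the mean and bars for the SD (n = 2). NARS averaged 19.2 FPKM in knockdown against 41.9 FPKM in control libraries, while FARSB averaged 14.1 FPKM in knockdown against 12.3 FPKM in control libraries.

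The mitochondrial partners had smaller log2 fold changes, with no test of the difference between partners. NARS2, the mitochondrial asparaginyl enzyme, was at 6.97 and 7.62 FPKM in knockdown libraries, against 9.03 and 7.75 FPKM in controls, with a log2 fold change of -0.18 ± 0.11 (limma-trend adjusted p = 0.363). The ratio of NARS to NARS2 was 2.67 and 2.60 in the knockdown libraries and 4.64 and 5.40 in the controls. FARS2, the mitochondrial phenylalanyl enzyme, which works as a single chain, was at 1.84 and 2.08 FPKM in knockdown libraries, against 2.50 and 2.69 FPKM in controls. Its groups did not overlap, and its log2 fold change of -0.28 ± 0.13 passed neither limma-trend (adjusted p = 0.243) nor limma-voom (adjusted p = 0.161).

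Among the cytosolic enzymes 14 of 20 had a lower knockdown mean and 6 a higher one, with a median log2 fold change of -0.17, against -0.032 over all tested genes and 54.3% of these with a lower knockdown mean. Under quantile normalization 7 of 20 were lower and the median was 0.025, so the direction of the cytosolic group depends on the scaling. Scaling by the summed reads moved the median of all genes to 0.080. Relative to the median of all genes the cytosolic median was -0.14 with the authors' totals, -0.13 with summed reads and 0.018 after quantile normalization. Library by library, the median deviation from the control mean was -0.23 for knockdown 1 and -0.082 for knockdown 2, against 0.016 for control 1 and -0.016 for control 2. Both knockdown libraries were below both controls for 12 of the 20 and above both for 2. Over all tested genes these patterns were found in 34.6% and 26.0%.

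The most abundant cytosolic enzyme was AARS, the alanyl-tRNA synthetase, at 109 and 134.8 FPKM in knockdown libraries, against 123.3 and 127.1 FPKM in controls. Its groups overlapped (log2 fold change -0.047 ± 0.16, limma-trend adjusted p = 0.869). WARS, the tryptophanyl enzyme, had the lowest cytosolic mean, with 7.98 and 9.42 FPKM in knockdown libraries and 7.96 and 8.08 FPKM in controls (log2 fold change 0.10 ± 0.11, limma-trend adjusted p = 0.581). Apart from the 6 described so far, the remaining 14 cytosolic enzymes had log2 fold changes between -0.33 and 0.072. The lowest of these was YARS, the tyrosyl enzyme, named after its values were seen, at 33.0 and 37.6 FPKM in knockdown libraries, against 45.7 and 43.7 FPKM in controls (limma-trend adjusted p = 0.185).

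The 8 enzymes held in the multi-synthetase complex had 4 lower and 4 higher knockdown means and a median log2 fold change of -0.10, which was 0.080 after quantile normalization and 0.026 with summed reads. None passed limma-trend or limma-voom, and none had an unadjusted limma-trend p under 0.05. KARS and EPRS, named after their values were seen, had the lowest and highest log2 fold changes of the 8, -0.26 and 0.072. After quantile normalization these were 0.026 for KARS and 0.27 for EPRS. KARS, the lysyl enzyme, stood at 57.1 and 64.3 FPKM in knockdown libraries, against 77.5 and 68.5 FPKM in controls. EPRS, which joins the glutamyl and prolyl enzymes in 1 chain, stood at 26.8 and 26.0 FPKM in knockdown libraries, against 24.3 and 25.7 FPKM in controls. Of the 12 cytosolic enzymes outside the complex 10 had a lower knockdown mean, with a median of -0.17 (-0.0081 after quantile normalization), and all 3 called genes were among them. The 3 scaffold proteins passed neither test, none had an unadjusted limma-trend p under 0.05, and their median of -0.060 was 0.056 with summed reads. AIMP1, the most abundant, was at 14.3 and 15.2 FPKM in knockdown libraries, against 14.9 and 15.9 FPKM in controls (log2 fold change -0.060 ± 0.10, limma-trend adjusted p = 0.724). EEF1E1, the least abundant, was at 2.65 and 3.38 FPKM in knockdown libraries, against 3.31 and 2.97 FPKM in controls (log2 fold change -0.047 ± 0.14, limma-trend adjusted p = 0.844). AIMP2 was at 10.9 and 13.4 FPKM in knockdown libraries, against 13.7 and 12.4 FPKM in controls, with 28.9% of its exonic bases shared with EIF2AK1.

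By class, 9 of the 10 class II cytosolic enzymes had a lower knockdown mean, with a median log2 fold change of -0.25, against 5 of the 9 class I enzymes, with a median of -0.092. EPRS belongs to both classes and was left out of this count. All 3 called genes are of class II. After quantile normalization the medians were -0.0044 for class II and 0.077 for class I, and with summed reads they were -0.12 for class II and 0.037 for class I. In the mitochondrial set 6 of 6 tested class II enzymes and 7 of 9 class I enzymes had a negative log2 fold change. The medians were -0.15 for class II and -0.16 for class I. The class II count includes PARS2 at -0.0055, whose mean in FPKM was slightly higher in knockdown libraries (5.90 against 5.86 FPKM). No test of a difference between classes was run.

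Of the 15 tested mitochondrial enzymes 13 had a lower knockdown mean on the log2(FPKM + 1) scale and 2 a higher one. The median log2 fold change was -0.16. PARS2 counts as lower at -0.0055, although its mean in FPKM was 5.90 in knockdown and 5.86 in control libraries. None of the 15 passed limma-trend or limma-voom, and 3 had an unadjusted limma-trend p under 0.05, where 23.4% of all tested genes did. After quantile normalization the median was -0.15, and relative to the median of all genes it was -0.13 with the authors' totals and -0.12 with summed reads. The medians of cytosolic and mitochondrial enzymes thus differed by -0.0090 (cytosolic minus mitochondrial), and by 0.17 after quantile normalization. The 3 mitochondrial genes with an unadjusted p under 0.05 were YARS2, AARS2 and MARS2, named after their values were seen. YARS2, the tyrosyl enzyme, was at 8.22 and 8.51 FPKM in knockdown libraries, against 12.8 and 11.0 FPKM in controls (log2 fold change -0.46 ± 0.11, limma-trend adjusted p = 0.128, limma-voom adjusted p = 0.0581). AARS2, the alanyl enzyme, was at 9.41 and 8.52 FPKM in knockdown libraries, against 11.9 and 11.9 FPKM in controls (limma-trend adjusted p = 0.139). MARS2, the methionyl enzyme, was at 2.82 and 2.64 FPKM in knockdown libraries, against 4.12 and 3.41 FPKM in controls (limma-trend adjusted p = 0.179).

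IARS2, the isoleucyl enzyme, was the most abundant mitochondrial member and had the largest positive difference among them. It was at 30.3 and 31.4 FPKM in knockdown libraries, against 29.6 and 28.7 FPKM in controls (log2 fold change 0.082 ± 0.10, limma-trend adjusted p = 0.632). WARS2, the tryptophanyl enzyme and the member just above the filter, was at 1.28 and 2.30 FPKM in knockdown libraries, against 1.80 and 1.67 FPKM in controls. SARS2, the seryl enzyme, averaged 0.934 FPKM over the 4 libraries and was not tested. It was at 0.755 and 0.816 FPKM in knockdown libraries, against 0.911 and 1.25 FPKM in controls, on 45 and 54 reads in knockdown against 49 and 68 reads in control libraries. The knockdown values of SARS2 lay below both controls, but 46.2% of its exonic bases are shared with another coding gene.

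**Figure D3:**
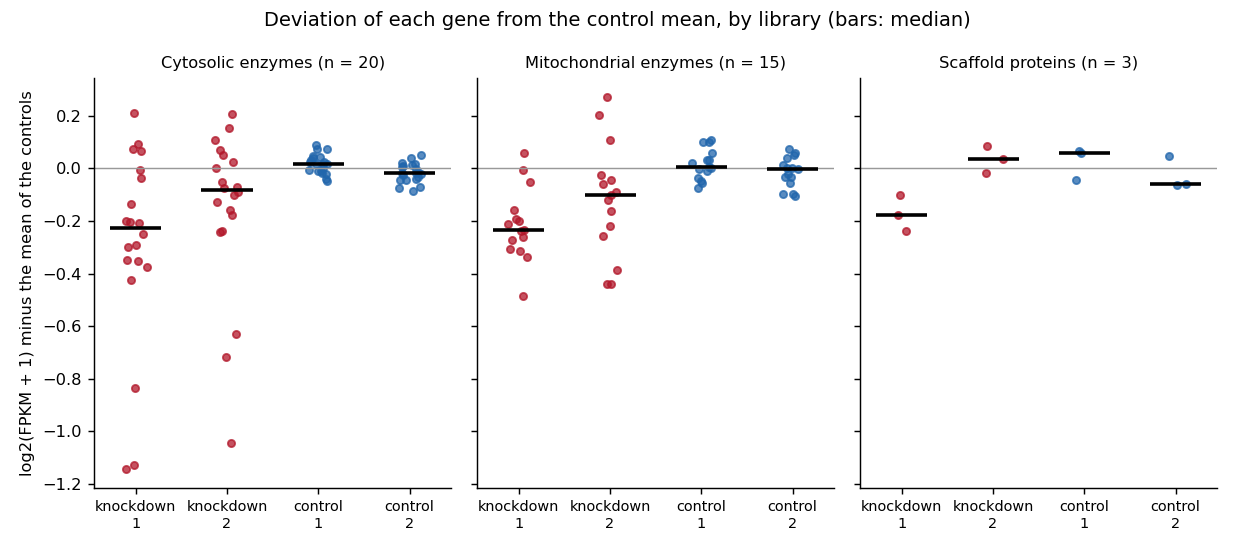
Deviation of each tested member from its mean in the controls (y axis, difference of log2(FPKM + 1)) in knockdown libraries 1 and 2 (red) and controls 1 and 2 (blue), with a bar for the median of each library. The cytosolic medians were -0.23 and -0.082 for knockdown libraries 1 and 2, and the mitochondrial medians were -0.23 and -0.10.

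By their medians the knockdown libraries differed from each other more than the controls did. Knockdown library 2 exceeded knockdown library 1 for 16 of the 20 cytosolic enzymes, by a median of 0.14 on the log2 scale, against 0.053 over all tested genes. The corresponding medians between control libraries were -0.032 for the cytosolic enzymes and -0.017 over all genes. The largest gap between knockdown libraries among the cytosolic enzymes was 0.51, for FARSA, and among the mitochondrial enzymes 0.53, for WARS2. Without knockdown library 2, limma-voom called 10 members lower and 2601 genes in all lower, and without knockdown library 1 it called 2 members, NARS and GARS, and 74 genes in all lower.

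The 20 cytosolic genes summed to 653 and 752 FPKM in knockdown libraries, against 888 and 855 FPKM in controls. Without NARS, GARS and FARSA the sums were 542 and 612 FPKM in knockdown libraries, against 647 and 629 FPKM in controls. The 16 mitochondrial genes summed to 116 and 122 FPKM in knockdown libraries, against 133 and 130 FPKM in controls. Within the cytosolic sum NARS made up 2.85% and 2.63% in knockdown libraries, against 4.72% and 4.89% in controls. For GARS the shares were 5.06% and 4.78% in knockdown libraries and 6.80% and 6.91% in controls. AARS made up a larger share in knockdown, 16.7% and 17.9%, against 13.9% and 14.9% in controls. Shares within a sum move when any member of the sum moves, so the share of AARS is not evidence that its level changed.

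Cytosolic enzymes were set beside the mitochondrial enzyme for the same amino acid in 17 pairs, of which 16 had both members tested. In control libraries the cytosolic member had the higher FPKM in 15 of the 17. The ratio of the control means lay between 0.950 for isoleucine and 84.0 for serine, with a median of 4.27. The serine ratio rests on SARS2, which averaged 0.934 FPKM, below the filter. This ratio was 103 and 70.2 in controls 1 and 2. The cytosolic log2 fold change was below the mitochondrial one in 5 of the 16 tested pairs and above it in 11. EPRS was paired with both EARS2 and PARS2, and FARS2 with both FARSA and FARSB, so the pairs are not all separate genes. The cytosolic change lay furthest below the mitochondrial one for asparagine, by -0.91, and for FARSA and FARS2, by -0.61.

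**Figure D4:**
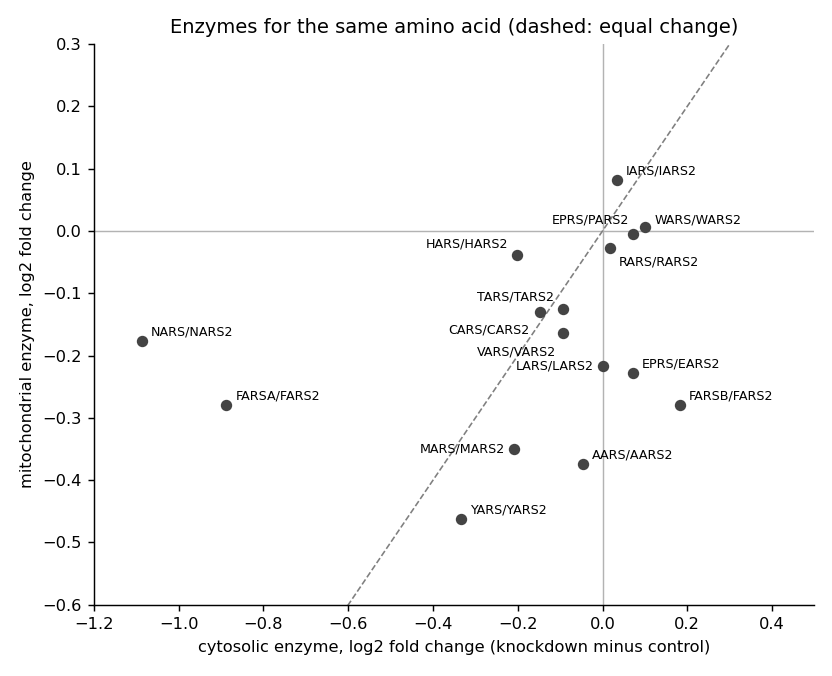
Log2 fold change of the mitochondrial enzyme (y axis) against that of the cytosolic enzyme for the same amino acid (x axis), both on the log2(FPKM + 1) scale as knockdown minus control, for the 16 tested pairs, with a dashed line for equal change. NARS/NARS2, at -1.09 and -0.18, and FARSA/FARS2, at -0.89 and -0.28, lie furthest to the left.

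Among the 12 cytosolic genes of the ATF4 list 8 had a lower knockdown mean, with a median log2 fold change of -0.12, and 2 fell by limma-voom (NARS and GARS). Among the other 8 cytosolic genes 6 had a lower knockdown mean, with a median of -0.21, and FARSA fell by limma-voom. Over all tested genes limma-voom called 5.80% lower. ATF4 itself was at 171 and 228 FPKM in knockdown libraries, against 278 and 265 FPKM in controls (limma-trend adjusted p = 0.220, limma-voom adjusted p = 0.0900). By promoter letters, the 7 cytosolic genes with the element had a median of -0.15 and the 9 with a window but no element had a median of -0.20. The cytosolic carriers of the element other than NARS and GARS, which are AARS, IARS, MARS, TARS and CARS, had log2 fold changes between -0.21 and 0.033, and the mitochondrial carrier YARS2 had -0.46. After quantile normalization the medians were 0.053 for the ATF4 list, 0.017 for the other cytosolic genes, 0.022 with the element and 0.077 without it.

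Of 23 genes listed for the amino acid response 20 were tested, with a median log2 fold change of -0.34, which was -0.079 after quantile normalization. Leaving out knockdown library 1 gave -0.21, and leaving out knockdown library 2 gave -0.49. None passed limma-trend, 9 of the 20 had an unadjusted p under 0.05, against 23.4% of all tested genes, and 5 fell by limma-voom, where 5.80% of all genes were called lower. EIF4EBP1, a repressor of cap-dependent translation, was at 24.3 and 32.4 FPKM in knockdown libraries, against 54.3 and 50.2 FPKM in controls (limma-voom log2 fold change -0.89, adjusted p = 0.0122). PSAT1, an enzyme of serine synthesis, was at 89.3 and 95.6 FPKM in knockdown libraries, against 155 and 160 FPKM in controls (limma-voom adjusted p = 0.00808). DDIT4, an inhibitor of mTORC1, was at 44.4 and 54.6 FPKM in knockdown libraries, against 74.8 and 82.5 FPKM in controls (limma-voom adjusted p = 0.0205). SHMT2, the mitochondrial serine hydroxymethyltransferase, was at 43.4 and 57.8 FPKM in knockdown libraries, against 80.3 and 74.3 FPKM in controls (limma-voom adjusted p = 0.0339). TRIB3, a target and inhibitor of ATF4 named after its values were seen, was at 45.8 and 56.0 FPKM in knockdown libraries, against 40.5 and 42.9 FPKM in controls (limma-trend adjusted p = 0.278). Members of this list thus lay on both sides of 0.

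Downstream of charging, all 7 tested genes of the cytosolic elongation list had a lower knockdown mean, with a median log2 fold change of -0.33, which was -0.036 after quantile normalization. The median became -0.28 when knockdown library 1 was left out and -0.48 when knockdown library 2 was. None passed limma-trend, 2 had an unadjusted p under 0.05 and 1 fell by limma-voom. In this and the next 3 lists the unadjusted counts are to be read against the 23.4% of all tested genes under that value. The limma-voom calls are to be read against the 5.80% of all tested genes called lower. The elongation gene called by limma-voom was EEF1D, a subunit of the factor that recharges eEF1A with GTP. EEF1D was at 9.77 and 11.1 FPKM in knockdown libraries, against 15.9 and 14.1 FPKM in controls (limma-voom adjusted p = 0.0339). Among 14 mitochondrial translation partners 9 had a lower knockdown mean, none passed limma-trend, 3 had an unadjusted p under 0.05 and 1 fell by limma-voom. It was TUFM, the mitochondrial elongation factor Tu, at 76.8 and 99.3 FPKM in knockdown libraries, against 134 and 127 FPKM in controls (limma-voom adjusted p = 0.0348). Of the 18 genes for tRNA processing and export 13 had a lower knockdown mean, none passed either test and 5 had an unadjusted limma-trend p under 0.05. RTCB, the tRNA ligase, was at 28.5 and 35.2 FPKM in knockdown libraries, against 43.7 and 40.7 FPKM in controls. HSD17B10, a subunit of mitochondrial RNase P, was at 56.2 and 73.8 FPKM in knockdown libraries, against 51.4 and 45.1 FPKM in controls. In the list for editing and charging quality control 5 of 7 genes were tested, none passed limma-trend, 1 had an unadjusted p under 0.05 and DTD1 fell by limma-voom. DTD1, which removes D-amino acids from tRNA, was at 1.45 and 1.74 FPKM in knockdown libraries, against 3.30 and 2.72 FPKM in controls (limma-voom adjusted p = 0.0196).

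The 7-base word TCACAGT had drawn attention in an earlier scan of these libraries in which NARS was one of the genes, so its presence there is no independent result. It was searched on the sense strand of the GENCODE 29 transcript of each member and occurred in 5 of the 39 (12.8%), against 2444 of 10561 tested coding genes (23.1%). NARS and IARS carried it in both the coding part and the 3′ UTR, and their sites are shown with the word in capitals.
NARS, coding: ttatttctaaaTCACAGTtgaagaacatt
NARS, 3′ UTR: tttttagtgatTCACAGTatccctcttag
IARS, coding: aactgatgaaaTCACAGTgtactataaag
IARS, 3′ UTR: aacttgagaccTCACAGTaatcttcacac
The flanks of the 4 sites differ. NARS fell, whereas IARS, the isoleucyl enzyme, had a log2 fold change of 0.033. LARS, VARS2 and YARS2 carried the word in the coding part, with log2 fold changes of 0.00021, -0.16 and -0.46. GARS and FARSA did not carry it.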

How the data were processed

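RNA was sequenced from 4 libraries of the J-gammal line, 2 with FYB1 knockdown and 2 controls. HISAT2 2.0.5 and the hg38 build are named in the submitters' processing notes. The authors deposited FPKM values per Ensembl gene. The counting program, annotation and strand setting are, for these counts, not given in the sources used here. All values were whole multiples of 1 read over the exon length in GENCODE 29 (100% within 0.001), so reads and the authors' library totals were recovered. Differences were tested by limma-trend (limma 3.58.1, R 4.3.3) on log2(FPKM + 1) for 13172 genes averaging at least 1 FPKM, with Benjamini-Hochberg adjustment over all of them and a threshold of 0.05. Lower and higher knockdown means were counted on this scale, which understates changes of low genes. Limma-voom on the recovered reads was an alternative. It kept the authors' library totals as library sizes, so it is no check of that scaling. No limma-voom fit with summed reads was run. Depth per gene was 686 to 12417 reads for cytosolic, 45 to 2680 for mitochondrial and 103 to 1034 for scaffold members. Named genes are those called by either test, the highest and lowest in level and the largest rise of each group, partners of called genes, members at the filter, and up to 4 called genes of each related list, or otherwise its 2 most abundant. Other pseudocounts, filters, scalings, a length and GC correction, a replicate block and each library left out were also tried, and 2 further settings, a crossed block and limma-voom with a library left out, were chosen after seeing the data. The members, lists and tests were chosen with earlier results of these data known. Analysis code was tested on simulated data.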

Additional observations from a re-analysis of the deposited data

How the results depend on the processing

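Over all genes limma-trend called 18 lower and 9 higher in knockdown. Calls numbered 0 lower and 0 higher with no filter, 149 lower and 32 higher at a mean of at least 5 FPKM, 48 and 28 with summed reads as library total, 87 and 43 after a length and GC correction, 27 and 18 after quantile normalization, and 764 and 255 by limma-voom. With no filter 0 genes passed limma-trend, against 3088 with an unadjusted p under 0.05 in the filtered fit. Leaving out 1 library gave 0 to 208 lower and 0 to 198 higher calls.

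The count of cytosolic enzymes called lower, 1 as reported, was 0 with no filter, 2 at a mean of at least 5 FPKM, 2 with summed reads, 2 after the length and GC correction, 3 by limma-voom and 0 to 1 with a library left out. The cytosolic median was 0.025 after quantile normalization, where 7 enzymes had a lower knockdown mean, -0.046 with summed reads, and -0.23 to -0.082 with a library left out. The mitochondrial median was -0.041 with summed reads and -0.23 to -0.10 with a library left out. The difference of the medians was 0.17 after quantile normalization. FYB1 lost its call with no filter (-1.65, limma-trend adjusted p = 0.264) and ranged from -1.84 to -1.46 with a library left out. The causes were not tested.

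Fold changes near 0 turned sign, and so did some further from 0. After quantile normalization SARS went from -0.27 to 0.023 and KARS from -0.26 to 0.026. QARS went from -0.21 to 0.077 and MARS from -0.21 to 0.022. The 7 cytosolic enzymes still lower in that setting included YARS at -0.090 and DARS at -0.032. AARS was 0.31 after quantile normalization, 0.090 with summed reads and 0.053 after the length and GC correction, and ranged from -0.20 to 0.11 with a library left out. WARS ranged from -0.0063 to 0.21 with a library left out. WARS2 was -0.0094 with a pseudocount of 0.1 and -0.070 after quantile normalization, and ranged from -0.26 to 0.27. AIMP1 was 0.037 after quantile normalization and 0.069 with summed reads. AIMP2 was 0.026 with summed reads and 0.015 after the length and GC correction, and ranged from -0.24 to 0.035. EEF1E1 was 0.056 with summed reads and ranged from -0.18 to 0.084.

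With the number in the title as a replicate block, 492 genes were called lower and 289 higher, with 3 cytosolic enzymes called lower. The labels do not state whether the numbers pair the samples. Deviations of knockdown library 1 and control library 1 correlated at -0.21 over genes. This single correlation cannot settle whether samples with the same number were handled together. A crossed block called 1303 lower and 607 higher.

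With 2 libraries a group, small differences are not detectable, and SARS2 and WARS2 rest on few reads. Across all tested genes the log2 fold change correlated with exon length (Spearman 0.22) and GC content (-0.29), as a description over genes that share the same libraries.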

Other observations

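Exons of 23 of the 39 members overlap those of another annotated gene, 14 of them a protein-coding one, over 0.517% to 46.2% of the member's exonic bases. KARS shares 176 bases with TERF2IP, a telomere protein gene on the other strand, which stood at 48.8 and 53.5 FPKM in knockdown libraries, against 67.6 and 63.2 FPKM in controls. MARS shares 355 bases with DDIT3, a transcription factor gene of the stress response, at 21.9 and 29.2 FPKM in knockdown libraries, against 24.5 and 21.6 FPKM in controls. HARS and HARS2 lie head to head, with 437 shared exonic bases and RefSeq starts 85 bases apart. HARS was at 7.31 and 8.52 FPKM in knockdown libraries, against 9.18 and 9.26 FPKM in controls, and HARS2 was at 9.22 and 9.40 FPKM in knockdown libraries, against 9.23 and 9.95 FPKM in controls. Neither passed limma-trend (adjusted p = 0.294 for HARS and 0.817 for HARS2). NARS has no exonic overlap with another annotated gene.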
